A study of Mus musculus with 48 samples.

Results

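The genes described here are the nuclear genes of oxidative phosphorylation, followed across all 48 libraries of a study of mouse macrophages treated with the compound AP-3-84. Earlier results of these data were known when the group was proposed, but its members follow from their symbols alone and no measured value enters the rule. They are the protein-coding genes whose names start with Ndufa, Ndufb, Ndufc, Ndufs, Ndufv, Uqcr or Atp5 or match Cox4 to Cox8, together with Sdha, Sdhb, Sdhc, Sdhd and Cyc1. Of 106 rows with such a symbol, 8 assembly factors (Ndufaf) and 12 rows not annotated as protein-coding were left out, and 86 genes of the 51789 rows in the table remained. By complex these are 36 genes of complex I, 4 of complex II, 9 of complex III, 20 of complex IV and 17 of complex V. Ndufa4 and Ndufa4l2 were counted with complex IV. Cox5a (ENSMUSG00000000088), which encodes a nuclear subunit of complex IV and marks the group, had 95379 counts over the 48 libraries and was found in every one of them.

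RNA was measured by sequencing of transcript 3′ ends in 16 groups of 3 libraries. Each of 8 macrophage populations was kept for 4 h with 10 µM AP-3-84 or with the same amount of DMSO, here called vehicle. The ascites population came from C57BL/6 mice whose genotype is given as B6(Cg)-Tyrc-2J/J, 45 days after injection of the mouse ovarian tumour line ID8, and the thio population from wild-type C57BL/6 mice 4 days after they had received 1 ml of 3% thioglycollate, which draws macrophages into the peritoneum. Both were enriched for F4/80-positive cells with magnetic beads. The other 6 populations were grown from C57BL/6 bone marrow of wild-type (WT) or p53 knockout (KO) mice for 6 days in M-CSF at 10 ng/mL. They were left as they were (M0), or were polarized for a further 24 h, to M1 with LPS at 100 ng/mL and IFN-γ at 50 ng/mL or to M2 with 10 ng/mL IL-4 plus 10 ng/mL IL-13. The labels do not say whether the 3 libraries of a group came from separate mice or cultures, so the p-values measure the spread between these libraries, which may be technical. The genotype field calls all bone marrow libraries wild-type, whereas titles, descriptions and the design text separate WT from KO. Cdkn1a, a p53 target, lay between 555 and 1120 CPM in the 18 WT libraries and between 34.1 and 292 in the 18 KO libraries. Trp53 itself was at 4.79 to 13.2 CPM in the former and 2.7 to 9.11 in the latter. Where the deletion lies relative to the counted 3′ end is not known here, so that level checks nothing.

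Oxidative phosphorylation takes electrons from NADH through complex I and from succinate through complex II, passes them by ubiquinone, complex III, cytochrome c and complex IV to oxygen, and uses the proton gradient so formed to make ATP at complex V, the ATP synthase. Most subunits are encoded in the nucleus. The mitochondrial genome encodes a few core subunits, and the table had rows for 0 of its 37 genes. In macrophages, alternative activation by IL-4 is known for increased oxidative metabolism, and activation by LPS with IFN-γ for a turn towards glycolysis and for itaconate, a product of Acod1 that inhibits complex II.

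Transcription factors named for respiratory genes (NRF1, the ETS factor GABPA, YY1, ERR) and the general factor SP1 bind short motifs near transcription starts. RefSeq promoters (GRCm38.p6, from 250 bases before to 50 bases after the start) were found for 67 of the 86 genes. A gene was counted for a motif if any of its promoters held it on either strand. GCGCATGC (NRF1) was counted for 10 of these 67 genes (14.9%, against 3.05% of all genes with a promoter). AANATGGCG (YY1) was counted for 10 (14.9%, against 2.76%) and CCGGAAGT (ETS) for 5 (7.46%, against 4.31%). TCAAGGTCA (ERR) was counted for 2 (2.99%, against 0.466%) and GGGCGG (SP1) for 27 (40.3%, against 38.2%). At least 1 of the first 4 motifs listed was counted for 26 of the 67 genes, or 38.8%. The share of all 32851 single promoters was 8.79%, which is per promoter and not per gene. These letters are a description and no evidence of binding. The promoters of 6 genes, chosen after their values were seen, are shown 5′ to 3′ on the gene's strand with motif letters in capitals. Cox5a marks the group, Ndufb5, Atp5b and Cox6a1 had the lowest adjusted p among members that rose in WT_M2, KO_M2 and KO_M1, and Ndufs8 and Uqcrh had the lowest among those that fell in KO_M1. Cox5a (chr9:57520982-57521281, plus strand) held 2 SP1 motifs, Atp5b (chr10:128083057-128083356, plus strand) a YY1 motif just after the start and 2 SP1 motifs, Cox6a1 (chr5:115348909-115349208, minus strand) an NRF1 motif and 2 SP1 motifs, and Uqcrh (chr4:116075021-116075320, minus strand) an ETS motif 11 bases before the start. Ndufb5 (chr3:32736813-32737112, plus strand) and Ndufs8 (chr19:3912725-3913024, minus strand) held none of the 5 motifs.
Cox5a: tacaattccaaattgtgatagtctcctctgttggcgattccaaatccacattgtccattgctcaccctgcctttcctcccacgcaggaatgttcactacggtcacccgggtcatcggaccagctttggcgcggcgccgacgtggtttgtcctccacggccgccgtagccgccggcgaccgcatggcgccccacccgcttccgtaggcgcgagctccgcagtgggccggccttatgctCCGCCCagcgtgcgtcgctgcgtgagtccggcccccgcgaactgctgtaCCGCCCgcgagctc
Atp5b: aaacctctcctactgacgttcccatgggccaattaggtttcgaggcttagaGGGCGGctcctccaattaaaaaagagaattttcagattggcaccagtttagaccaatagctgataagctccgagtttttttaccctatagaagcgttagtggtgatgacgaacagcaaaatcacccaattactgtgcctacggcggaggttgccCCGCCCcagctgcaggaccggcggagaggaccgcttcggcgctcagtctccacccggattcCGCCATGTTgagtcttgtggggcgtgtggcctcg
Cox6a1: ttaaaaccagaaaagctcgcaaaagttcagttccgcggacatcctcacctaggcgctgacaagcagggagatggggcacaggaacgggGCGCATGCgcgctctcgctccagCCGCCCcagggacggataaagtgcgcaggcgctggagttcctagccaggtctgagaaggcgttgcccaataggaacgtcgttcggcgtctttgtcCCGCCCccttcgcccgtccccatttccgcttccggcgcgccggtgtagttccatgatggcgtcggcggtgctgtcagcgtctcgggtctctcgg
Uqcrh: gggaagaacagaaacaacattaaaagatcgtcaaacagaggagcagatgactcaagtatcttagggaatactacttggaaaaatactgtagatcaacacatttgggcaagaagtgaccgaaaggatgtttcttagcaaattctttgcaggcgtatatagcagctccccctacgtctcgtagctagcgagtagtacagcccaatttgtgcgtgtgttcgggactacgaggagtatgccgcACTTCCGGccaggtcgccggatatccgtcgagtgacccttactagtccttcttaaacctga
Ndufb5: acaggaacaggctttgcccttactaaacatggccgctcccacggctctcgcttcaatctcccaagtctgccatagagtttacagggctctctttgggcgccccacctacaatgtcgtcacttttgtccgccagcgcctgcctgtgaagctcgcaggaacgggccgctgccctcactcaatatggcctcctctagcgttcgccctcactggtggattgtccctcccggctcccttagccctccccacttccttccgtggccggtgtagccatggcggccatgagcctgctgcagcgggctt
Ndufs8: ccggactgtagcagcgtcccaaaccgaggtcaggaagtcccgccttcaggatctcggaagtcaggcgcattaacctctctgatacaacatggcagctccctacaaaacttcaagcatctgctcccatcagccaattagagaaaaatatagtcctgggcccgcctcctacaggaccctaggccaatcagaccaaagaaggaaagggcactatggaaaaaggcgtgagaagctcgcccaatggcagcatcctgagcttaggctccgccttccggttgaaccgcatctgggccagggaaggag

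Library totals were 15532373 to 19417581 counts in the 12 peritoneal libraries and 3081707 to 4645148 in the 36 bone marrow libraries. Levels are given as CPM, counts relative to the library total after TMM scaling, and are compared between libraries for 1 gene, not between genes. All 7 macrophage markers had counts in every group. Their summed level was 5890 to 18400 CPM in KO_M2 vehicle libraries against 24900 to 30900 in WT_M2, and 16100 to 25100 in KO_M1 against 43600 to 46500 in WT_M1. Lyz2 made up most of each sum, with means of 7550 and 23200 CPM in KO_M2 and WT_M2 and of 14800 and 39200 in KO_M1 and WT_M1. Mean levels of Adgre1, Itgam, Csf1r and Mertk were also lower in KO in both states. Mean Cd68 was lower in KO_M2 (1020 against 1540) and not in KO_M1 (575 against 537). Mean Fcgr1 was higher in KO_M2 (45.5 against 9.77) and in KO_M1 (409 against 373), with overlap in both. It was at 8.76, 25 and 103 CPM in KO_M2 and 20.3, 3.92 and 5.07 in WT_M2. In KO_M1 it was at 599, 304 and 326, against 355, 355 and 410 in WT_M1. Some libraries stood apart from their group. WT_M2 vehicle replicate 1 had Retnla, an M2 marker, at 456 CPM against 4300 and 2660 in the other two, and Marco, a scavenger receptor, at 1090 against 130 and 83.6. In the KO_M2 vehicle libraries Retnla was at 5860, 455 and 406 CPM. Marco was at 2900, 2070 and 473 CPM in the KO_M0 libraries with AP-3-84, at 14.3 to 17.5 in KO_M0 vehicle and at 1170 to 2070 in WT_M0 vehicle. Neutrophil markers summed to 410 to 3720 CPM in WT_M2 vehicle and 316 to 3030 in KO_M2 vehicle. S100a8 and S100a9 made up most of each sum, with means of 959 and 593 CPM in WT_M2 and 691 and 606 in KO_M2. In KO_M1 vehicle S100a8 was at 632 to 1430 CPM and S100a9 at 305 to 900, against 319 to 434 and 106 to 122 in WT_M1. Means in KO_M1 and WT_M1 were 18.6 and 0.444 for Mpo and 2.3 and 0.0839 for Elane. For Retnlg they were 1.09 and 0.397 and for Ly6g 0.0844 and 0.168. The part of these differences in the results was not tested. In bulk RNA, fewer cells of a type and less RNA per cell cannot be told apart.

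Of the 86 genes, 81 had enough counts to be tested in each of the 2 fits. The 5 others are isoforms known from other tissues or from low oxygen. Cox4i2, the hypoxia-linked form of subunit 4, had 10 counts in all 48 libraries and Cox7b2 had 21, and Cox8b, Cox8c and Ndufa4l2 had 0. Muscle and testis isoforms that passed the filter were at low levels. Cox6a2, the muscle form of subunit 6a, ranged from 0.262 to 27 CPM in bone marrow libraries, and Cox6b2, the testis form of subunit 6b, from 0 to 3.58 CPM. Most members varied little between replicates. Among 79 members with at least 1000 counts, the median SD of log2 (CPM + 0.5) within a group was 0.0945 in the peritoneal and 0.186 in the bone marrow libraries. The SD in bone marrow libraries was over 0.5 for 5 of them, namely Sdhd (1.06), Cox7c (1), Cox6a2 (0.796), Atp5g2 (0.681) and Uqcrc1 (0.624), which are named because of these values.

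The summed level of the 86 genes after TMM scaling was 15772 to 16988 CPM in WT_M0 vehicle libraries, 17828 to 18480 in WT_M1 and 22684 to 22904 in WT_M2, with no overlap between the 3 states. In KO vehicle libraries it was 12451 to 13563 in M0, 15046 to 15436 in M1 and 18230 to 23763 in M2, again with no overlap. As a share of all counts, without TMM scaling, the WT order of M0 and M1 turned: the members took 1.69 to 1.77% in WT_M0, 1.55 to 1.59% in WT_M1 and 2.01 to 2.14% in WT_M2, and 1.37 to 1.43%, 1.53 to 1.68% and 2 to 2.29% in the same states of KO. Ascites vehicle libraries had 11564 to 11906 CPM and thio vehicle libraries 10648 to 11032. These sums are set mostly by the genes with many counts and have no test.

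**Figure D1:**
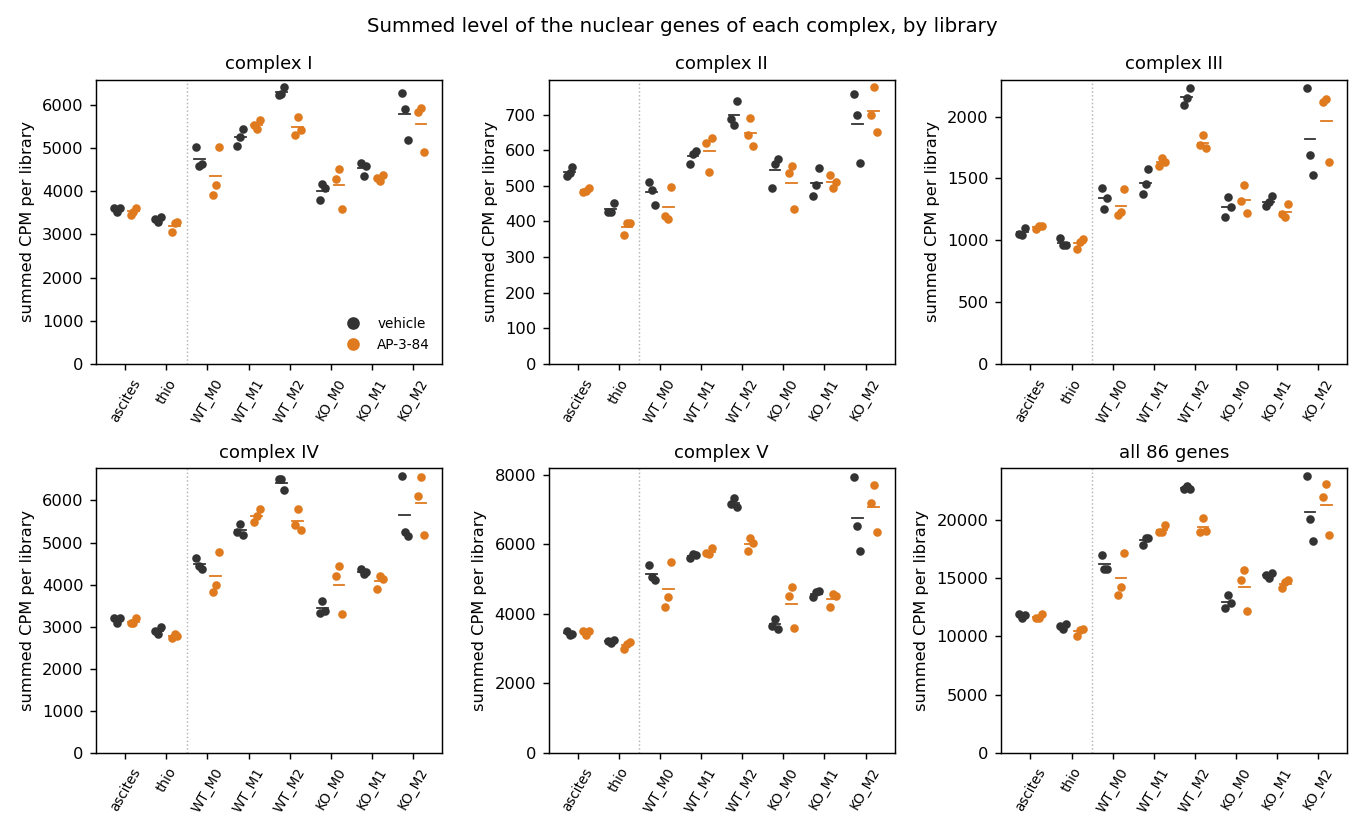
Summed TMM-scaled CPM of the nuclear genes of each complex and of all 86 genes (vertical axes, starting at 0) in each library, by population (horizontal axis). Points are libraries, short bars are means of 3, black is vehicle, orange is AP-3-84, and the dotted line separates the peritoneal from the bone marrow libraries, which were fitted apart. The WT_M2 vehicle libraries sit at 22684 to 22904 CPM for all 86 genes, above all WT_M0 and WT_M1 vehicle libraries, and the KO_M2 vehicle libraries spread from 18230 to 23763. As a share of all counts WT_M1 (1.55 to 1.59%) lies below WT_M0 (1.69 to 1.77%).

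The first question was how the polarized states differ from M0. In WT macrophages the change to M2 raised 44 of 81 genes and lowered 0 (edgeR adjusted p under 0.05 over all genes tested). Of all 11779 genes, 12.7% were called higher and 10.7% lower. The median log2 fold change of the 81 was 0.42, against 0.01 for all genes. Genes of every complex were among them, with 18 of 36 in complex I, 2 of 4 in complex II, 6 of 9 in complex III, 10 of 15 in complex IV and 8 of 17 in complex V. With scaling by total counts 20 rose and 0 fell, the median of all genes was -0.20 and that of the members 0.21. Without WT_M0 vehicle replicate 2 the count was 25 and without replicate 3 it was 29, and without WT_M2 vehicle replicate 1, the one with little Retnla, it was 38.

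Ndufb5, an accessory subunit of the membrane arm of complex I, had 149, 145 and 145 CPM in WT_M0 and 247, 289 and 272 in WT_M2. All 3 M2 libraries were above all M0 libraries, and the log2 fold change was 0.88 (SE 0.125, edgeR adjusted p = 3.12e-06). Cox8a, a small subunit of complex IV, went from 663, 596 and 620 CPM to 1120, 1100 and 1070 (log2 fold change of 0.81, with an SE of 0.132 and an edgeR adjusted p = 2.84e-05). Sdha, the catalytic flavoprotein of complex II, went from 121, 112 and 110 CPM to 175, 186 and 213 (0.74, SE 0.131, adjusted p = 7.45e-05). Its iron-sulfur partner Sdhb rose by 0.84 (SE 0.178). The membrane anchors of the same complex did not pass the test: Sdhc had 120, 142 and 57 CPM in WT_M2 against 146, 137 and 116 in WT_M0, and Sdhd 4.45, 8.75 and 0.317 against 14.1, 18.9 and 6.13. Both groups overlapped. Cox4i1, the common form of subunit 4 of complex IV, rose by 0.56 (SE 0.115), and Cox7a2l, also counted with complex IV, by 0.56 (SE 0.175). Cyc1, cytochrome c1 of complex III, rose by 0.64 (SE 0.195). The calls of Cox7a2l and Cyc1 were each lost with total-count scaling and on leaving out WT_M0 vehicle replicate 2, WT_M2 vehicle replicate 3 or 1 further WT_M0 vehicle library, replicate 1 for Cox7a2l and replicate 3 for Cyc1. Uqcrh, the hinge protein of complex III, had 255, 261 and 271 CPM in WT_M0 and 346, 472 and 548 in WT_M2 (0.79, SE 0.201, adjusted p = 0.00386). Uqcrc1, a core protein of complex III named for its size of change, had 56.8, 36.3 and 40.1 CPM in WT_M0 and 169, 142 and 160 in WT_M2 (1.82, SE 0.504, adjusted p = 0.00993, and 0.0509 without WT_M0 vehicle replicate 2). Cox5a had 434, 414 and 418 CPM in WT_M0 and 523, 490 and 416 in WT_M2, with overlap and no call (0.18, SE 0.16, adjusted p = 0.46).

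In KO macrophages the same change raised 63 of 81 genes and lowered 0, with 20.1% of all genes called higher and 18.0% lower and a median of 0.67 against 0.02 for all genes. The calls took in 28 of 36 genes of complex I, 3 of 4 of complex II, 6 of 9 of complex III, 11 of 15 of complex IV and 15 of 17 of complex V. Atp5b, the catalytic beta subunit of the ATP synthase, had 248, 242 and 197 CPM in KO_M0 and 643, 676 and 638 in KO_M2 (log2 fold change of 1.51, with an SE of 0.161 and an edgeR adjusted p = 1.72e-08). Cox5b, a zinc-binding subunit of complex IV, went from 242, 245 and 231 CPM to 591, 509 and 454 (1.11, SE 0.125, adjusted p = 3.88e-08), and Atp5o, the subunit that links the head of the ATP synthase to its stator, from 193, 227 and 198 to 497, 522 and 453 (1.25, SE 0.16). Cox5a rose by 1.20 (SE 0.162), from 214, 223 and 191 CPM to 519, 444 and 485. Ndufb5 and Cox8a rose by 0.82 (SE 0.125) and 0.87 (SE 0.133). The 44 genes that rose in WT and the 63 that rose in KO shared 34, which is 77.3% of the former and 54.0% of the latter. As 63 of all 81 tested members rose in KO, an overlap of this size would be reached with no link between the lists. The 2 comparisons have no library in common. Members that rose in WT without a call in KO include Uqcrh, Sdhb, Cox4i1 and Cox7a2l. In the KO_M2 vehicle libraries Uqcrh was at 462, 238 and 184 CPM and Cox7a2l at 623, 315 and 365, with replicate 1 the highest in both. Without that library both fell in KO_M2 against KO_M0 (adjusted p = 0.000406 and 0.00225), and 59 members in all were called. Of the 7 macrophage markers, which summed to 5890 to 18400 CPM in KO_M2 vehicle and to 32300 to 38900 in KO_M0 vehicle, Lyz2 set most of the difference (means of 7550 and 27200 CPM). Csf1r was also lower in KO_M2 (1860 against 6600), as were Mertk (62.4 against 301) and Fcgr1 (45.5 against 124), while Adgre1 (443 and 485), Cd68 (1020 and 1160) and Itgam (228 and 225) were close. Their part in these changes was not tested.

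**Figure D2:**
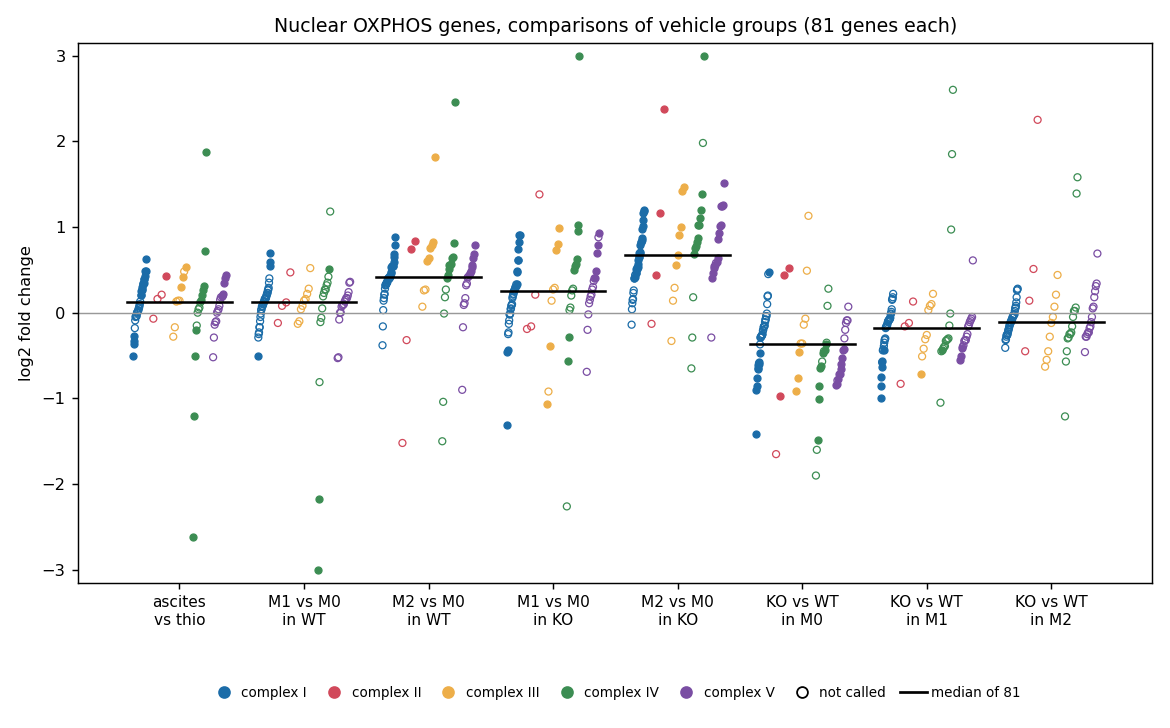
Log2 fold change (vertical axis) of the 81 tested genes in the 8 comparisons between vehicle groups (horizontal axis), coloured by complex. Filled points passed an edgeR adjusted p under 0.05, open points did not, black lines are medians, and values beyond 3 are drawn at 3 (Cox6b2 in M1 against M0 in WT, and Cox6a2 in M1 and in M2 against M0 in KO). The medians are 0.42 and 0.67 for M2 against M0 in WT and KO, and -0.36 for KO against WT in M0.

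The difference between genotypes in the change to M2 was tested as an interaction. It was called for 24 of 81 genes, 20 with a larger change in KO and 4 with a smaller one, against 13.9% and 13.2% of all genes. The 4 M0 and M2 vehicle groups all enter it, and the KO_M0 vehicle libraries also enter 6 other comparisons given here, so these counts are not independent of each other. Atp5b changed by 0.34 in WT (345 to 459 CPM in M0, 427 to 586 in M2, no call) and by 1.51 in KO, and the difference was 1.17 (SE 0.224, edgeR adjusted p = 0.000308). For Cox5a the difference was 1.03 (SE 0.227, adjusted p = 0.00119) and for Atp5j, a stalk subunit of the ATP synthase, 1.09 (SE 0.242, adjusted p = 0.0012). Among the subunits of complex II it was 1.48 for Sdhc (SE 0.455), 3.90 for Sdhd (SE 1.18) and -0.97 for Sdhb (SE 0.251), while Sdha was not called. Sdhd had few counts and the largest SD between bone marrow replicates (1.06), with a KO_M0 vehicle mean of 4.09 CPM (SD 4.15). Its difference was called in all 17 alternatives, but its rise in KO_M2 against KO_M0 lost its call in 3 of 11. Cyc1 differed by 0.83 (SE 0.278). The call of Sdhc was lost without KO_M0 vehicle replicate 3 or WT_M2 vehicle replicate 3, its lowest libraries in each group (37.1 and 57 CPM), and that of Cyc1 without KO_M0 vehicle replicate 3, WT_M0 vehicle replicate 1 or WT_M2 vehicle replicate 2. The 4 genes with a smaller change in KO were Sdhb, Cox7a2l (-0.85, SE 0.247), Uqcrh (-1.12, SE 0.283) and Ndufa6 (-0.69, SE 0.193), an accessory subunit of complex I. Uqcrh and Ndufa6 are named here after their values were seen. With total-count scaling 26 differences were positive and 4 negative.

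**Figure D3:**
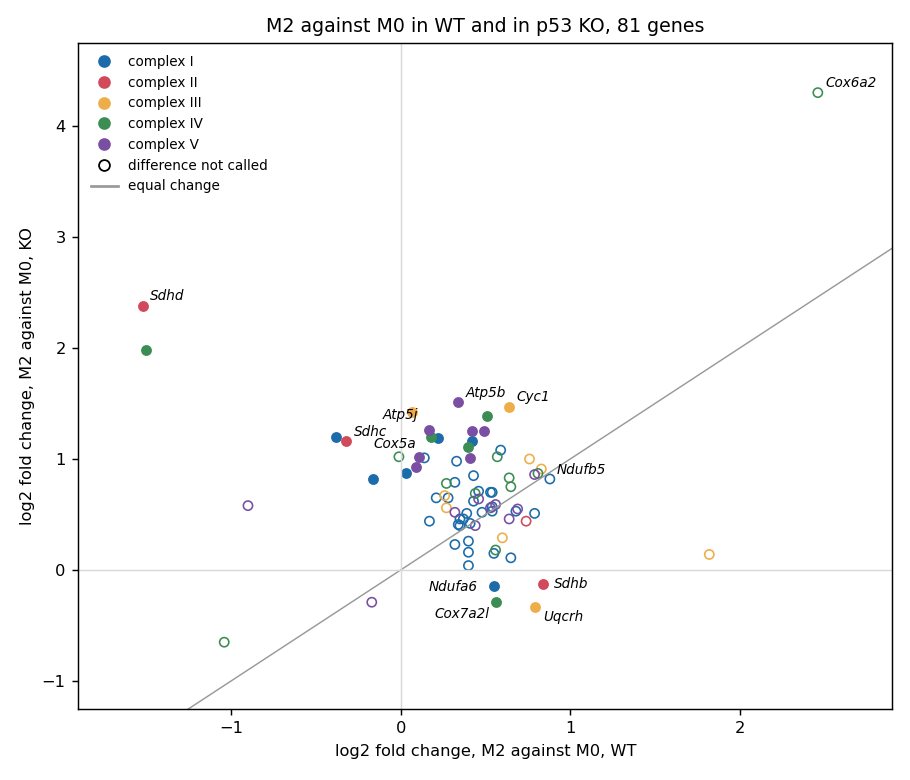
Log2 fold change of M2 against M0 in WT (horizontal axis) and KO (vertical axis) for the 81 tested genes, coloured by complex. Filled points have a called difference between the genotypes, and the grey line marks equal change. Atp5b lies at 0.34 and 1.51, Sdhd at -1.52 and 2.38, and Uqcrh at 0.79 and -0.33.

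M1 polarization moved fewer of the genes in WT cells. Mean levels of the M1 marker Nos2 in WT_M0 and WT_M1 vehicle were 0.256 and 3.38 CPM. For Il1b they were 56.6 and 419, for Cxcl9 0.256 and 4.01, for Il12b 1.74 and 5.17 and for Cxcl10 24.2 and 22.3. The test called 4 higher and 3 lower of 81, against 8.01% and 7.49% of all genes, so the share called was near or under the background, and the median was 0.13. With total-count scaling the median of all genes was -0.30, that of the members turned to -0.17, and 1 gene was called higher and 9 lower. Ndufv3, a small subunit of the NADH-binding part of complex I, had 221, 199 and 221 CPM in WT_M0 and 317, 317 and 409 in WT_M1 (log2 fold change of 0.70, with an SE of 0.15 and an edgeR adjusted p = 0.00144), and it kept its call under both scalings. Ndufa8, another accessory subunit of complex I, rose by 0.59 (SE 0.138) and Cox8a by 0.51 (SE 0.132). Neither passed with total-count scaling. Cox7a1, the muscle form of subunit 7a, had 8.08, 13.9 and 7.67 CPM in WT_M0 and 2.38, 2.12 and 2.01 in WT_M1, and fell by 2.17 on the log2 scale (SE 0.374, adjusted p = 0.000138). Cox6b2 had 36 counts over the 3 WT_M0 libraries and 0 over the 3 WT_M1 libraries. With a floor of 3 counts over the group it was at least 10.6-fold lower. Ndufb11, a complex I subunit encoded on the X chromosome, fell by 0.50 (SE 0.138), a call lost without WT_M0 vehicle replicate 3 or WT_M1 vehicle replicate 2. Cox5a had 546, 558 and 478 CPM, above all 3 WT_M0 libraries, with no call (0.32, SE 0.16, adjusted p = 0.182).

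In KO cells M1 polarization raised 25 and lowered 7 of the 81 genes, against 22.8% and 21.8% of all genes, with a median of 0.25. Cox6a1, the common form of subunit 6a of complex IV, had 269, 331 and 309 CPM in KO_M0 and 590, 526 and 638 in KO_M1 (log2 fold change of 0.95, with an SE of 0.143 and an edgeR adjusted p = 3.54e-06). Cox5a rose by 1.02 (SE 0.162), to 395, 450 and 430 CPM, and Atp5b by 0.93 (SE 0.159), to 397, 445 and 468 CPM. Ndufs8, an iron-sulfur subunit of complex I, had 85.4, 107 and 108 CPM in KO_M0 and 47, 42.5 and 31.7 in KO_M1, and fell by 1.31 (SE 0.214, adjusted p = 1.05e-05). Uqcrh fell by 1.06 (SE 0.202), from 318, 389 and 399 CPM to 169, 189 and 173, and Ndufb11 by 0.46, a call lost without KO_M1 vehicle replicate 1 (adjusted p = 0.0675) and without the filter on low counts (0.1). The WT and KO rises to M1 shared 2 genes, Cox8a and Ndufs4, which is 50.0% of the 4 in WT and 8.0% of the 25 in KO. Of all 81 members, 25 rose in KO, so an overlap of 2 is too small to read.

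The difference between genotypes in the change to M1 was called for 10 genes, 6 positive and 4 negative, against 11.2% and 9.51% of all genes. With total-count scaling 19 were positive and 2 negative, the median of all genes being 0.23. Cox7a1 differed by 2.45 (SE 0.53, edgeR adjusted p = 0.00117), having fallen in WT and with no call in KO, where it had 3.93, 2.77 and 3.79 CPM in M0 and 4.67, 5.32 and 2.9 in M1. Ndufs8 differed by -1.30 (SE 0.298) and Uqcrh by -1.20 (SE 0.284). Cox5a and Cyc1 differed by 0.70 (SE 0.226) and 0.84 (SE 0.28), calls that were lost on leaving out any of 3 and 5 of the 12 libraries. The count was 4 without WT_M0 vehicle replicate 1 and 6 without KO_M1 vehicle replicate 3. The M1 markers also differed between KO_M1 and WT_M1 vehicle, with means of 180 and 22.3 CPM for Cxcl10 and 53.1 and 5.17 for Il12b. Nos2 was at 12.2 and 3.38 and Il1b at 874 and 419, while Cxcl9 was at 3.04 and 4.01. The part of these differences in the result was not tested.

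KO was then compared with WT in each state without the compound. In M0, 32 of 81 genes were lower and 3 higher in KO, against 16.8% and 16.4% of all genes, and the median was -0.36 against 0.03 for all genes. The lower genes came from complex I (10 of 36), complex II (1 of 4), complex III (3 of 9), complex IV (8 of 15) and complex V (10 of 17). Cox5a had 434, 414 and 418 CPM in WT_M0 and 214, 223 and 191 in KO_M0 (log2 fold change of -1.01, with an SE of 0.162 and an edgeR adjusted p = 2.06e-05). Cox5b fell by 0.65 (SE 0.124), from 403, 368 and 358 CPM to 242, 245 and 231, and Atp5b by 0.83 (SE 0.159), from 459, 416 and 345 to 248, 242 and 197. For all of these the groups did not overlap. Cox7a1 fell by 1.48 (SE 0.353), Sdhc by 0.97 (SE 0.325) and Cyc1 by 0.76 (SE 0.201). The call of Sdhc was lost without KO_M0 vehicle replicate 3 or WT_M0 vehicle replicate 1 or 2. The genes higher in KO were Ndufa6 (0.47, SE 0.136), Sdha (0.44, SE 0.13) and Sdhb (0.52, SE 0.178), so that the catalytic subunits of complex II and one of its anchors went in opposite directions in this fit. Sdhb had 246, 340 and 364 CPM in KO_M0 and 230, 220 and 213 in WT_M0, and its call was lost on leaving out any of 5 of the 6 libraries. The call of Sdha was lost without KO_M0 vehicle replicate 3 (adjusted p = 0.079) and without the filter on low counts (0.132), and that of Ndufa6 without the filter (0.0907). The count of called genes was 26 to 33 on leaving out each library in turn. The macrophage markers went both ways between these groups. Mean levels in KO_M0 and WT_M0 were 6600 and 1800 CPM for Csf1r, 301 and 66.5 for Mertk, 1160 and 756 for Cd68 and 124 and 59.3 for Fcgr1, against 485 and 1100 for Adgre1, 225 and 440 for Itgam and 27200 and 30200 for Lyz2. Marco differed as given before. The part of these differences in the result was not tested.

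In M1, 11 of 81 genes were lower and 0 higher in KO, against 5.71% and 5.93% of all genes, with a median of -0.18. This direction flipped with total-count scaling, where the median was 0.09, 8 genes were higher and 2 lower, and the median of all genes was 0.27. Ndufv3 had 317, 317 and 409 CPM in WT_M1 and 211, 206 and 204 in KO_M1 (log2 fold change of -0.75, with an SE of 0.15 and an edgeR adjusted p = 0.00157) and passed under both scalings. Ndufb7, an accessory subunit of complex I, fell by 0.63 (SE 0.157), from 176, 168 and 175 CPM to 111, 113 and 110, and Ndufs8 by 0.85 (SE 0.213), from 64.1, 70.2 and 83.8 to 47, 42.5 and 31.7. Leaving out any library but KO_M1 vehicle replicate 2 brought the count to between 3 and 5. The call of Ndufb7 was lost with total-count scaling, and that of Ndufs8 without replicate 3 of either group. Cox5a was at 546, 558 and 478 CPM in WT_M1 and 395, 450 and 430 in KO_M1, without overlap and without a call (-0.31, SE 0.16, adjusted p = 0.204). The 32 genes lower in M0 and the 11 lower in M1 shared 4, Atp5g3, Atp5j, Cox5b and Ndufb3, which is 12.5% of the former and 36.4% of the latter. Of all 81 members 32 were lower in M0, so an overlap near this size would be reached with no link between the lists. Macrophage, M1 and neutrophil markers also differed between KO_M1 and WT_M1 vehicle, as given before. Their part in the result was not tested.

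In M2, edgeR called 0 of 81 genes between KO and WT, against 3.56% of all genes. At an unadjusted p under 0.05 there were 15, and DESeq2 called 5. The share of all genes under either criterion is not given here, so these counts cannot be weighed against it. The median was -0.11, and 0.06 with total-count scaling. Without KO_M2 vehicle replicate 1 the count was 9, and without WT_M2 vehicle replicate 1 it was 2. Cox5a was at 519, 444 and 485 CPM in KO_M2 and 523, 490 and 416 in WT_M2, with full overlap.

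The peritoneal populations were compared with each other without the compound. In ascites macrophages 32 of 81 genes were higher and 8 lower than in thio macrophages, against 20.3% and 13.4% of all genes, with a median of 0.13 against 0.05 for all genes. With median-ratio size factors the split was 23 higher and 11 lower, and with total-count scaling 38 and 6. Cox5a had 226, 228 and 221 CPM in ascites and 146, 128 and 136 in thio (log2 fold change of 0.72, with an SE of 0.0714 and an edgeR adjusted p = 3.02e-07). Ndufc2, a membrane-arm subunit of complex I, had 125, 124 and 141 CPM against 78.1, 87.1 and 86.5 (0.63, SE 0.0698), and Atp5b 243, 251 and 249 against 184, 181 and 181 (0.44, SE 0.0558). Sdhb rose by 0.43 (SE 0.0736) and Cyc1 by 0.53 (SE 0.109). Cox6a2 had 8.75, 7.49 and 10.2 CPM against 1.4, 3.7 and 2.06 (1.88, SE 0.412).

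The 8 lower genes were 4 of complex I and 4 of complex IV. Ndufa3, an accessory subunit of complex I, had 125, 122 and 116 CPM in ascites against 152, 159 and 155 (log2 fold change of -0.36, with an SE of 0.0575 and an edgeR adjusted p = 6.85e-05). Ndufa4 fell by 0.51 (SE 0.116), Cox6b2 by 2.62 (SE 0.551), Cox7a1 by 1.20 (SE 0.35) and Cox4i1 by 0.20 (SE 0.0586), the last without a call under total-count scaling. The call of Cox4i1 was also lost without ascites vehicle replicate 1 or 2 or thio vehicle replicate 1, and that of Cox7a1 without ascites vehicle replicate 2 or thio vehicle replicate 1. All 7 markers of epithelial, mesothelial or ID8 cells had counts in ascites vehicle libraries and summed to 210 to 247 CPM there, against 2.55 to 4.66 in thio, where Epcam and Msln were at 0. Their part in these differences was not tested.

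For the compound itself edgeR called few of these genes in 7 of the 8 populations, where few of all genes were called as well. In ascites edgeR called 0 of 81, against 1.79% of all genes (8 at an unadjusted p under 0.05, and 1 by DESeq2). In WT_M0 it called 0, against 0.144% (7 unadjusted, 0 by DESeq2), in WT_M1 0, against 0.017% (6 unadjusted, 0 by DESeq2), in KO_M1 0, against 0.0% (1 unadjusted, 0 by DESeq2), and in KO_M2 0, against 0.0509% (2 unadjusted, 0 by DESeq2). The percentages are for edgeR. Shares of all genes for the unadjusted and DESeq2 counts are not given here, so those counts cannot be weighed against them. In thio 2 were lower and 0 higher, against 1.82% and 2.51% of all genes. There 66 of the 81 fold changes were negative, beside 46.2% of those of all genes (median -0.08, against 0.03 for all genes). Ndufs3, a core subunit of the peripheral arm of complex I, had 31.9, 32.1 and 29.4 CPM with AP-3-84 and 44.6, 37.1 and 38.7 with vehicle (log2 fold change of -0.37, with an SE of 0.0945 and an edgeR adjusted p = 0.0356). Uqcrc2, a core protein of complex III, had 51.1, 56.7 and 53 CPM against 63, 64.3 and 67.2 (-0.27, SE 0.0741, adjusted p = 0.0448). Leaving out any library but thio vehicle replicate 2 brought the count to 0. The difference in response between ascites and thio was called for 0 of 81 genes by edgeR and DESeq2 (6 at an unadjusted p under 0.05), against 0.118% of all genes.

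In WT_M2 1 gene was lower and 0 were higher with AP-3-84, against 0.976% and 0.229% of all genes. Negative fold changes were found for 66 of 81 members, beside 49.6% of all genes. The median of the members was -0.19, and -0.07 with total-count scaling, which moved the median of all genes to 0.11. Atp5l, subunit g of the ATP synthase, had 742, 857 and 836 CPM with AP-3-84 and 1310, 1200 and 1270 with vehicle, without overlap (log2 fold change of -0.63, with an SE of 0.153 and an edgeR adjusted p = 0.0289). The call was lost on leaving out any of the 6 libraries. The summed level of the 86 genes after TMM scaling was 18953 to 20219 CPM with AP-3-84 and 22684 to 22904 with vehicle. As a share of all counts, without TMM scaling, it was 1.9 to 1.98% against 2.01 to 2.14%, a smaller gap. These sums have no test.

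KO_M0 was the population with more than 2 calls. There 10 of 81 genes were higher and 2 lower with AP-3-84, against 12.1% and 8.57% of all genes, so the share of higher genes was near the background. Cox5a had 534, 611 and 307 CPM with AP-3-84 and 214, 223 and 191 with vehicle (log2 fold change of 1.21, with an SE of 0.162 and an edgeR adjusted p = 4.06e-06). All 3 treated libraries were above all vehicle libraries, and replicate 3, which also had the lowest Marco, was the lowest of the treated ones. This call held in all 11 alternatives, with adjusted p from 1.13e-10 to 0.000122. Atp5g1, which encodes a copy of the c-ring subunit of the ATP synthase, had 180, 198 and 134 CPM against 98.8, 121 and 124 (0.58, SE 0.157, adjusted p = 0.00851), and Cox6a2 had 3.03, 16.8 and 3.71 against 0.262, 0.308 and 2.16 (3.04, SE 0.802). Cox6a1, Atp5o and Atp5b, named after their values were seen, rose by 0.54 (SE 0.143), 0.63 (SE 0.159) and 0.51 (SE 0.159), and Cyc1 by 0.62 (SE 0.202). Treated and vehicle libraries overlapped for Cox6a1 and Atp5o. The calls of Atp5g1, Cox6a2, Cox6a1, Atp5o, Atp5b and Cyc1 were all lost without treated replicate 2, those of Atp5b and Cyc1 also without vehicle replicate 3 and that of Atp5g1 without vehicle replicate 1. Uqcrh went the other way, with 279, 214 and 254 CPM against 318, 389 and 399 (-0.57, SE 0.201, adjusted p = 0.0415), and so did Ndufb10, an accessory subunit of complex I, with 52.3, 53 and 58 against 72.6, 77.6 and 65.7 (-0.40, SE 0.143, adjusted p = 0.0418). Each of these 2 calls was lost in 5 of 11 alternatives. The count of 12 fell to 1 without treated replicate 2 and to 6 without vehicle replicate 3, and was 21 without treated replicate 3. Macrophage markers also differed between these groups, in both directions. Mean levels with AP-3-84 and vehicle were 2840 and 6600 CPM for Csf1r, 82 and 301 for Mertk and 542 and 1160 for Cd68. For Lyz2 they were 22900 and 27200. They were 1510 and 485 for Adgre1, 469 and 225 for Itgam and 206 and 124 for Fcgr1. The part of these differences in the result, Cox5a included, was not tested.

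**Figure D4:**
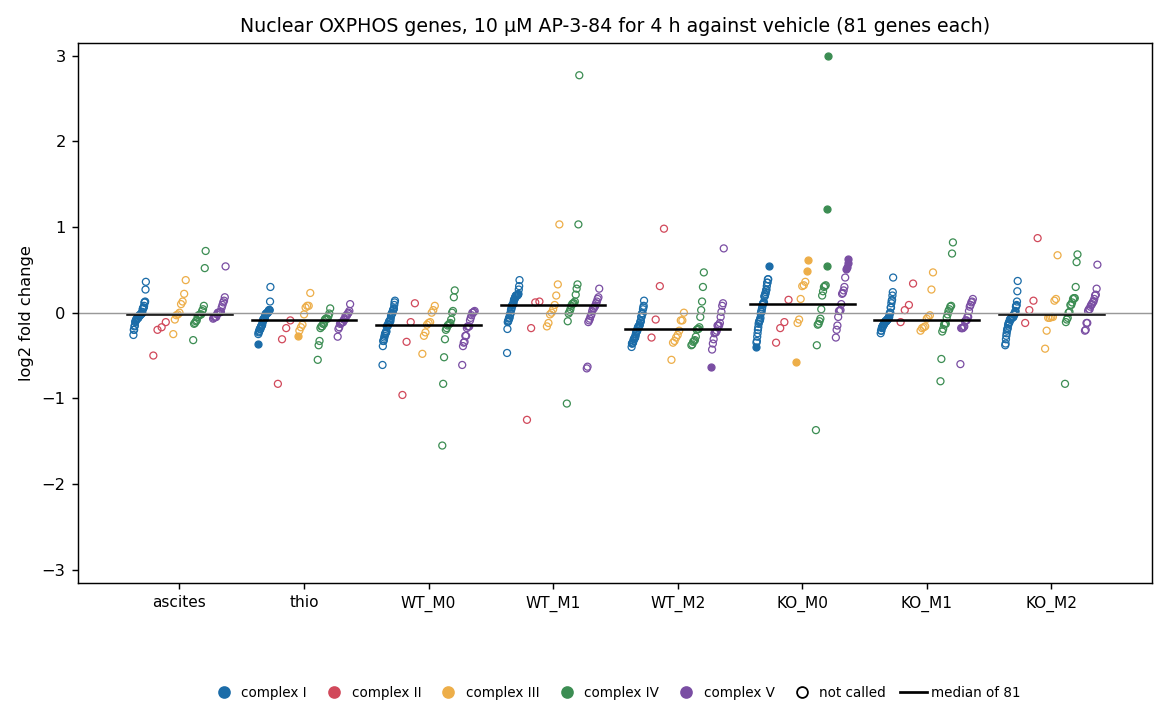
Log2 fold change (vertical axis) of the 81 tested genes for AP-3-84 against vehicle in the 8 populations (horizontal axis), coloured by complex, with filled points for an edgeR adjusted p under 0.05 and black lines for medians. Values beyond 3 are drawn at 3 (Cox6a2 in KO_M0). Filled points number 12 in KO_M0, 2 in thio, 1 in WT_M2 and 0 in the other populations.

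The difference between KO and WT in the M0 response was tested as an interaction and called for 11 genes, all 11 more positive in KO. Of all genes 10.0% were called more positive and 6.99% less, so the share called was near the background. With total-count scaling 8 were positive and 2 negative. Cox5a differed by 1.36 (SE 0.227, edgeR adjusted p = 0.000146), with 342, 382 and 412 CPM in the treated WT_M0 libraries against 434, 414 and 418 in vehicle. Cyc1 differed by 1.10 (SE 0.282), with an adjusted p of 0.0514 without treated KO_M0 replicate 2, and Atp5g1 by 0.85 (SE 0.222). Leaving out 1 library gave counts from 2 (treated KO_M0 replicate 2) to 19 (treated KO_M0 replicate 3), and 4, 7 and 6 without treated WT_M0 replicate 1, treated replicate 2 and vehicle replicate 1. The KO_M0 vehicle libraries are the reference here, in the M1 and M2 comparisons within KO and in KO against WT in M0. Cox5a had a log2 fold change of 1.21 with AP-3-84, 1.02 in M1 and 1.20 in M2 against these same libraries.

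Ndufa4 and its relative AA467197 were followed as a pair. Ndufa4 is a subunit of complex IV, and AA467197 encodes the mouse form of NMES1, a small protein that can take its place. In bone marrow vehicle libraries AA467197 had 5.16, 7.89 and 2.56 CPM in WT_M0, 16.7, 11.9 and 14.6 in WT_M1 and 134, 160 and 87.1 in WT_M2. The log2 fold changes against M0 were 1.45 (SE 0.444, edgeR adjusted p = 0.0245, lost in 5 of 11 alternatives) and 4.59 (SE 0.432, adjusted p = 6.15e-09). In KO it had 1.31, 6.16 and 0.27 CPM in M0, 26.6, 40.8 and 28.3 in M1 and 78.3, 80.2 and 76.4 in M2, with changes of 3.68 (SE 0.487) and 4.98 (SE 0.481). The difference between genotypes was 2.23 in M1 (SE 0.68, adjusted p = 0.0197, lost on leaving out any of 3 of the 12 libraries) and not called in M2. Ndufa4 had 82.6, 68.1 and 53.2 CPM in WT_M0, 73.9, 56.7 and 58.7 in WT_M1 and 98.2, 95.9 and 51 in WT_M2, with overlap and no call in either comparison (log2 fold changes -0.11, SE 0.257, and 0.27, SE 0.256). In KO it rose in M2 by 0.78 (SE 0.26, adjusted p = 0.018, lost without KO_M0 vehicle replicate 3 or KO_M2 vehicle replicate 1) and in M1 was 33.5, 59.7 and 50.4 CPM against 54.5, 54.8 and 28.4 in M0, with no call. In ascites against thio the pair went in opposite directions, with AA467197 at 63, 63.5 and 59 against 6.13, 4.86 and 6.13 CPM (3.44, SE 0.133, adjusted p = 1.43e-12) and Ndufa4 at 27.1, 24.3 and 24.7 against 40.5, 35.3 and 32.5. With AP-3-84 AA467197 fell in WT_M2 by 1.65 (SE 0.359, adjusted p = 0.0137), to 37.7, 26.5 and 56.7 CPM. This call was lost without treated replicate 1, treated replicate 2 or vehicle replicate 2.

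**Figure D5:**
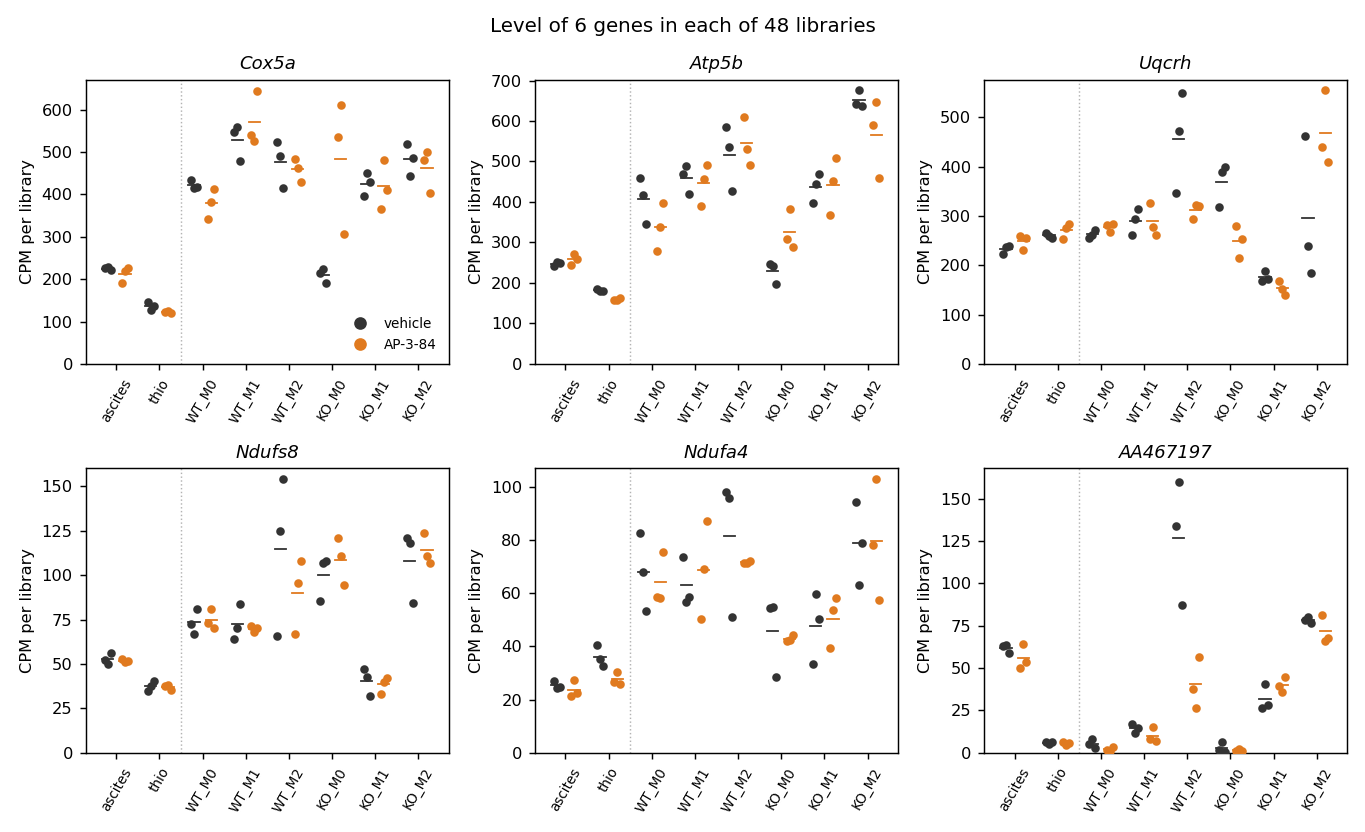
Level in CPM (vertical axes, starting at 0) of 5 members and of AA467197 in each library by population (horizontal axis). Points are libraries, bars are means of 3, black is vehicle, orange is AP-3-84, and the dotted line separates the peritoneal from the bone marrow libraries. Cox5a is at 191 to 223 CPM in KO_M0 vehicle and at 307 to 611 in KO_M0 with AP-3-84, and AA467197 is highest in WT_M2 vehicle, at 87.1 to 160.

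Acod1, whose product itaconate inhibits complex II, was at 119, 122 and 107 CPM in ascites and 3.77, 1.88 and 2.5 in thio (log2 fold change 5.42, SE 0.164). In bone marrow vehicle libraries it was at 189, 427 and 360 CPM in WT_M0, 953, 1030 and 848 in WT_M1, and 1580, 436 and 176 in WT_M2, where replicate 1 was the one with little Retnla. In KO_M0 it was at 8.39, 5.54 and 7.03 CPM, far below WT_M0 (-5.53, SE 0.693, edgeR adjusted p = 2.5e-06), and it rose to 147, 140 and 46.1 with AP-3-84 (3.98, SE 0.668). It fell with AP-3-84 in WT_M2 by 3.03 (SE 0.577), to 76, 64.3 and 129 CPM, and this call was lost without vehicle replicate 1 (adjusted p = 0.083) or treated replicate 1 or 2.

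Other genes of the pathway are described by counts, in the order of 15 tested complex I assembly factors, 32 assembly factors of the other complexes, 18 genes of pyruvate dehydrogenase and the citric acid cycle and 13 genes of cytochrome c and inner membrane carriers. For M2 against M0 in WT 1, 3, 3 and 1 of them rose and 0, 0, 1 and 1 fell, beside 12.7% and 10.7% of all genes. In KO 6, 7, 13 and 8 rose and 0, 2, 0 and 1 fell, beside 20.1% and 18.0%. For M1 against M0 in WT 1, 4, 1 and 2 rose and 0 of any list fell, beside 8.01% and 7.49%. In KO 7, 8, 8 and 6 rose and 0, 2, 2 and 1 fell, beside 22.8% and 21.8%. For KO against WT in M0 0, 0, 1 and 0 rose and 4, 6, 6 and 7 fell, beside 16.4% and 16.8%. Of 15 tested regulators of respiratory genes and mitochondrial DNA expression 1 rose and 0 fell in WT_M2, and their median was -0.23 against 0.01 for all genes. In KO 3 of the 15 rose and 2 fell, with a median of 0.06 against 0.02. The 1 that rose in WT was Ppargc1b, a coactivator of respiratory genes. It had means of 7.28 ± 1.73 CPM in WT_M0 and 36.2 ± 12.8 in WT_M2 (SD, n = 3), a rise of 2.31 on the log2 scale (SE 0.379, edgeR adjusted p = 3.13e-05). In KO Ppargc1b rose by 2.37 (SE 0.384). It is named after its values were seen and does not stand for the list. Of 8 partners of the respiratory chain known to be induced in inflammation or low oxygen, AA467197 and Acod1 among them, 2 rose and 3 fell in WT_M2, and 4 rose and 1 fell in KO_M2.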

How the data were processed

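Whole-number counts per gene for the 48 libraries were used as the authors deposited them. RSEM, Bowtie2 and DESeq2 are named, without role or version, per the submitters' processing notes. Which genome build and annotation were used, whether molecular identifiers were counted and whether estimated counts were rounded is not given in the sources used here. Libraries were made with a QuantSeq FWD kit from 100 ng RNA and read as 75-base single reads, per the labels' protocols, so counts come from transcript 3′ ends.

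Peritoneal (16955 genes tested) and bone marrow libraries (11779 genes) were fitted apart with edgeR 4.0.16 in R 4.3.3 (quasi-likelihood test, filterByExpr by group, TMM, robust dispersion, 1 mean per group). P-values were two-sided and adjusted by Benjamini-Hochberg over all genes within each of 20 comparisons, and a gene was called under 0.05. The biological coefficient of variation was 0.168 and 0.225. On simulated counts with known changes, 51 of 100 genes changed by 1 and 78 of 100 changed by 2 (log2) were recovered for AP-3-84 in ascites over 16955 genes, and 37 and 81 of 100 in WT_M0 over 11779 genes. These shares are not for the members, and recovery at the members' levels is not given here. Symbols were matched for 51596 of 51789 gene IDs. Alternatives were median-ratio size factors, total-count scaling, no filter on low counts, DESeq2 1.42.0, a replicate block and leaving out each library. Named genes are, per comparison, up to 3 called members in each direction with the lowest p and groups that do not overlap (for interactions, the 3 lowest p), plus a fixed set (Cox5a, Cox4i1, Cox4i2, Ndufa4, Ndufa4l2, Cox6a2, Cox7a1, Cox7a2l, Sdha to Sdhd, Cyc1, AA467197, Acod1). Other genes named were chosen after their values were seen. The group of genes and the lists were chosen with earlier results of these data known, though the rule for members uses symbols only. Pairs of replicates differed beyond counting error, with a chi-square that averaged 5.3 to 25.2 over genes in the 12 peritoneal pairs and 2.51 to 38.7 in the 36 bone marrow pairs. Same-numbered libraries deviated together in all 3 pairs only for M2 against M0 in WT (correlations 0.114 to 0.208), where a replicate block gave 43 calls against 44. Left out were 8 assembly factors, counted apart, 11 pseudogene transcripts and Ndufb1-ps, a noncoding transcript of 31779 counts. Reads of Ndufb4 may be split with Ndufb4c.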

Additional observations from a re-analysis of the deposited data

Results flagged for a closer look

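The results given a closer look are the differences between WT and KO in the same contrast, each tested as an interaction with edgeR, beside the effects in each genotype in the preceding text. Of 81 members, 11 differed in the response to AP-3-84 in M0, all more positive in KO, beside 10.0% of all genes more positive and 6.99% less. This share is near that of all genes, and with total-count scaling 8 were more positive and 2 less. The count of 11 also depended on single libraries, as given before. The change to M1 differed for 10 members, of which 6 were more positive and 4 less, beside 11.2% and 9.51%, which is at or under the share of all genes. The change to M2 differed for 24, of which 20 were more positive and 4 less, beside 13.9% and 13.2%. For AP-3-84 in M0 the KO minus WT differences on the log2 scale were 1.36 for Cox5a, 1.1 for Cyc1 and 0.85 for Atp5g1, and 3.91 for Acod1, which is no member.

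For M1 against M0 they were 2.45 for Cox7a1, 0.7 for Cox5a, 0.84 for Cyc1, -1.3 for Ndufs8 and -1.2 for Uqcrh, with 2.23 for AA467197 and 5.33 for Acod1. For M2 against M0 they were 1.17 for Atp5b, 1.03 for Cox5a, 1.09 for Atp5j, 0.83 for Cyc1, 1.48 for Sdhc and 3.9 for Sdhd, and -0.97 for Sdhb, -0.85 for Cox7a2l, -1.12 for Uqcrh and -0.69 for Ndufa6, with 4.19 for Acod1. The KO_M0 vehicle libraries enter all 3 contrasts. In them Marco was at 14.3 to 17.5 CPM and Acod1 at 5.54 to 8.39, against 1170 to 2070 and 189 to 427 in WT_M0 vehicle. The part of this difference in the interactions was not tested. No group had enough libraries for a search for single outlying samples.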

How the results depend on the processing

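With 3 libraries a group and 3081707 to 4645148 counts in bone marrow libraries, small changes could go uncalled. Numbers of called members that moved were as follows. With total-count scaling they were 1 for AP-3-84 in ascites, 2 for KO against WT in M2, 20 for M2 against M0 in WT and 21 for the genotype difference in the change to M1. Without the filter on low counts they were 2, 4, 1, 3 and 1 for AP-3-84 in ascites, thio, WT_M0, WT_M1 and KO_M2, and 5 for KO against WT in M2. DESeq2 gave 1 and 4 for AP-3-84 in ascites and thio and 5 for KO against WT in M2. Leaving out 1 library gave 0 to 2 for AP-3-84 in thio, 0 to 0 in WT_M2, 1 to 21 in KO_M0 and 0 to 2 in KO_M2 (2 without KO_M2 vehicle replicate 1), 3 to 13 for KO against WT in M1, 0 to 9 in M2, 25 to 38 for M2 against M0 in WT, 2 to 19 for the genotype difference in the M0 response and 4 to 11 for that in the change to M1. For ascites against thio it gave 31 to 36, for KO against WT in M0 26 to 33, for M2 against M0 in KO 56 to 63 and for the genotype difference in M2 18 to 26. Why these counts moved was not tested, and the shares of all genes called under these alternatives are not given here.

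Values that turned sign belonged to genes with no call. Cox5a in M2 against M0 in WT was -0.04 with total-count scaling. On leaving out 1 library, Cox5a for KO against WT in M2 ranged from -0.09 (without WT_M2 vehicle replicate 3) to 0.08 and was -0.04 without KO_M2 vehicle replicate 1. Sdhb in M2 against M0 in KO ranged from -0.29 to 0.05 (without KO_M2 vehicle replicate 3). Ndufa4 in M1 against M0 ranged from -0.26 to 0.05 in WT (without WT_M0 vehicle replicate 1) and in KO from -0.18 (without KO_M0 vehicle replicate 3) to 0.27, with -0.11 without KO_M1 vehicle replicate 2. Apart from M2 against M0 in WT, no comparison had correlations over 0.1 in all of its same-numbered pairs (range -0.327 to 0.375). For AP-3-84 in KO_M1 and in WT_M2, 2 of 3 pairs were over 0.1, up to 0.375 and 0.22. A replicate block gave 0 members for AP-3-84 in thio in place of 2.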
